A study of Mus musculus with 6 samples.

Results

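LAG-3, the T cell receptor with its CD3 signalling chains, the CD8 coreceptor and the enzymes that shed LAG-3 were followed through 10 genes: Lag3, Cd3e, Cd3d, Cd3g, Cd247, Trac, Cd8a, Cd8b1, Adam10 and Adam17. They were chosen by name, as the receptor components that BiTS concerns and the known LAG-3 sheddases, with earlier results of these data known. They make up 10 of the 49671 genes in the count tables. All 10 passed the filter on low counts, which left 13996 genes.

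The 3 groups were CD8 T cells from spleens of OT-I mice, given BiTS, BiTS(mut) or an isotype control, and RNA was taken after 48 h. BiTS is known as a bispecific agent that brings LAG-3 and the T cell receptor complex together; what distinguishes BiTS(mut) is not stated in the labels. Every group carried the OT-I transgenic receptor and received SIINFEKL, the ovalbumin peptide which that receptor recognises, on antigen-presenting cells, so no library was unstimulated. Each group held 2 libraries, and the labels do not say whether these came from separate mice or cultures, so the spread behind each p-value is only that of these libraries and may be technical.

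LAG-3 is an inhibitory receptor that appears on T cells after activation and, in cis, can dampen signalling by a T cell receptor close to it. The T cell receptor itself has no signalling motif: its alpha and beta chains assemble with CD3 epsilon, delta, gamma and zeta, whose tails are phosphorylated by Lck, the kinase carried by CD8. ADAM10 and ADAM17 are membrane metalloproteases that cut LAG-3 and other surface proteins, so that the LAG-3 protein on a cell can change while its mRNA does not. All values here are mRNA.

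Libraries held 10813123 to 15239077 gene counts, and spike-in transcripts made up 3.36% to 7.54% of the reads counted. By the numbers in their titles the libraries fall into a first set (BiTS replicate 1, BiTS(mut) replicate 1 and isotype replicate 1) and a second set (BiTS replicate 2, BiTS(mut) replicate 2 and isotype replicate 4). The labels do not say what the sets are, but 52.7% of the tested genes were called between them (25.9% higher and 26.9% lower in the second set), so each treatment value below is also given within the sets. In the T cell check, Cd8a and Cd8b1 lay among the higher genes. Cd4 had 1 to 7 counts, Ncr1 at most 1 count and Foxp3 2 to 6 counts per library. Other genes listed as markers of CD4 T cells or NK cells were not that low. Zbtb7b had 762 to 1473 counts, Klrk1 884 to 1328 counts and Eomes 108 to 225 counts. Trbv12-1, a V beta 5 segment of the OT-I receptor, was at 112.1 to 155.7 CPM, whereas the 9 V alpha 2 (Trav14) segments had 0 to 11 counts each; segments of this family are near-identical, and these values are uncertain. The summed level of 18 dendritic cell markers was 2610 and 1584 CPM with BiTS, 3157 and 1758 CPM with BiTS(mut), and 3147 and 1667 CPM with isotype (replicates in order), with Siglech at 0 in every library. That sum was lowest with BiTS in both sets (without Ccl22, BiTS and isotype were level in the second set, at 1405 CPM each), and lower in every library of the second set than in every library of the first. In bulk RNA, fewer cells of a type and less RNA per cell cannot be told apart.

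Where the genes lie frames how they can be compared. On mm10, Lag3 spans chr6:124904361-124911705 on the minus strand, 16139 bases from Cd4, a relative of it in structure. Cd8b1 (chr6:71322788-71337494) and Cd8a (chr6:71373427-71379173) lie 35932 bases apart on the plus strand of the same chromosome. Cd3g (chr9:44969572-44980431, minus), Cd3d (chr9:44981786-44987339, plus) and Cd3e (chr9:44998740-45009627, minus) form a cluster with gaps of 1354 and 11400 bases. Cd247, which encodes the zeta chain, is at chr1:165788681-165877277 on the plus strand, and Trac, the alpha constant region, at chr14:54220521-54224206 on the plus strand. Adam10 (chr9:70678997-70780229, plus) and Adam17 (chr12:21323509-21373632, minus) are not neighbours of the others. The exons of Cd247 share 3007 of their 5329 bases with Pou2f1, which lies on the opposite strand and had at most 567 counts in a library; since the strand setting of the counting is not given in the sources used here, Cd247 is the least certain of the 10 levels. The exons of Adam17 shared 97 of 7154 bases with Iah1, and those of Cd3e 135 of 4080 bases with Gm48719, both on the opposite strand.

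Promoter sequences were available for 7 of the 10 genes from RefSeq (GRCm38.p6) and are shown for the 2 receptor genes that differed most between the sets and for 1 sheddase gene, since their base composition sets the receptor genes apart from the sheddase genes. Each line holds the 250 bases upstream of the annotated start, 5′ to 3′ on the gene's strand, with every CpG in capitals. The windows are chr6:71373177-71373426 for Cd8a, chr9:44981536-44981785 for Cd3d and chr9:70678732-70678981 for Adam10, all on the plus strand.

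Cd8a: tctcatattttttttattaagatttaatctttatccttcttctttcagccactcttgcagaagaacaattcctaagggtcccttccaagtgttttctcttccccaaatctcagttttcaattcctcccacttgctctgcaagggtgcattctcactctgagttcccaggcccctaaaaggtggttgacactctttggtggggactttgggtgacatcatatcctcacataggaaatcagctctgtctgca

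Cd3d: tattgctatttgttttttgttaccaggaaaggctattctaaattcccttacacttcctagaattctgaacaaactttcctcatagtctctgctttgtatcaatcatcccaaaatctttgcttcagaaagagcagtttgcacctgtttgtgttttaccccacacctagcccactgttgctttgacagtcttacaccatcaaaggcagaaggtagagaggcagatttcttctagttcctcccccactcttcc

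Adam10: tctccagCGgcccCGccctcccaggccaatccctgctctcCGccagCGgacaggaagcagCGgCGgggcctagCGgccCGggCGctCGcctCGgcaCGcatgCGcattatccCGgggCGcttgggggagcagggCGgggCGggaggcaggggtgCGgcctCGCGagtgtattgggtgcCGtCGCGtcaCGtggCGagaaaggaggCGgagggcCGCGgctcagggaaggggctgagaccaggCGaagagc

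The Cd8a and Cd3d windows hold 0 CpG, as few as any of the 32851 RefSeq promoters of this length, and 92.1% of those hold more. Cd247, Cd3g and Cd3e hold 3, 4 and 7 CpG, around the median of 6. Adam17 and Adam10 hold 23 and 29 CpG, and 86.7% and 93.2% of promoters hold fewer. GC content ran from 41.2% in Cd3d and Cd247 to 74.0% in Adam10, against a median of 52.4%. The GC box GGGCGG, searched on both strands, occurred 3 times in the Adam10 window and once in those of Adam17 and Cd3g, and is found in 32.7% of promoters. TATAAA, also searched on both strands, occurred in none of the 7 windows and occurs in 12.4% of promoters. Such matches describe the letters of these windows and say nothing on factors bound there.

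Lag3 was the most abundant of the 10 mRNAs per length. Its level averaged 279.0 CPM per kilobase of exon over the 6 libraries, above 98.9% of the tested genes. Trac followed at 149.1, Cd8b1 at 123.9, Cd3d at 96.8, Cd8a at 76.4, Cd3g at 45.5, Cd3e at 30.5, Cd247 at 22.8, Adam17 at 12.96 and Adam10 at 12.37 CPM per kilobase. Each gene was above the next in 6 of 6 libraries except at 2 places. Trac was above Cd8b1 in 5 of 6 libraries, and Adam17 was above Adam10 in 4 of 6, so neither pair was separated by more than the spread of the libraries. The 4 CD3 chains assemble into 1 complex. Their mRNA levels per length thus differed by several fold, with Cd3d highest and Cd247 lowest in every library. Much of this came from the divisor, a summed exon length that need not be the length of a transcript (1815 bases for Cd3d, 5329 for Cd247). Before that division the means were closer, at 175.8 CPM for Cd3d, 148.7 for Cd3g, 124.3 for Cd3e and 121.3 for Cd247. The beta chain constant regions Trbc1 and Trbc2 were at 609.5 and 466.7 CPM per kilobase, but their sequences are near-identical and the split between them is uncertain. Among the other inhibitory receptors, Ctla4, which competes for B7 ligands, was at 166.1 CPM per kilobase and below Lag3. Tigit was at 64.2, Btla at 23.0, and Pdcd1, which encodes PD-1, at 13.8 CPM per kilobase. Havcr2 (TIM-3), Cd244a, Cd160 and Cd200r1 lay between 2.53 and 6.12 CPM per kilobase.

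**Figure D1:**
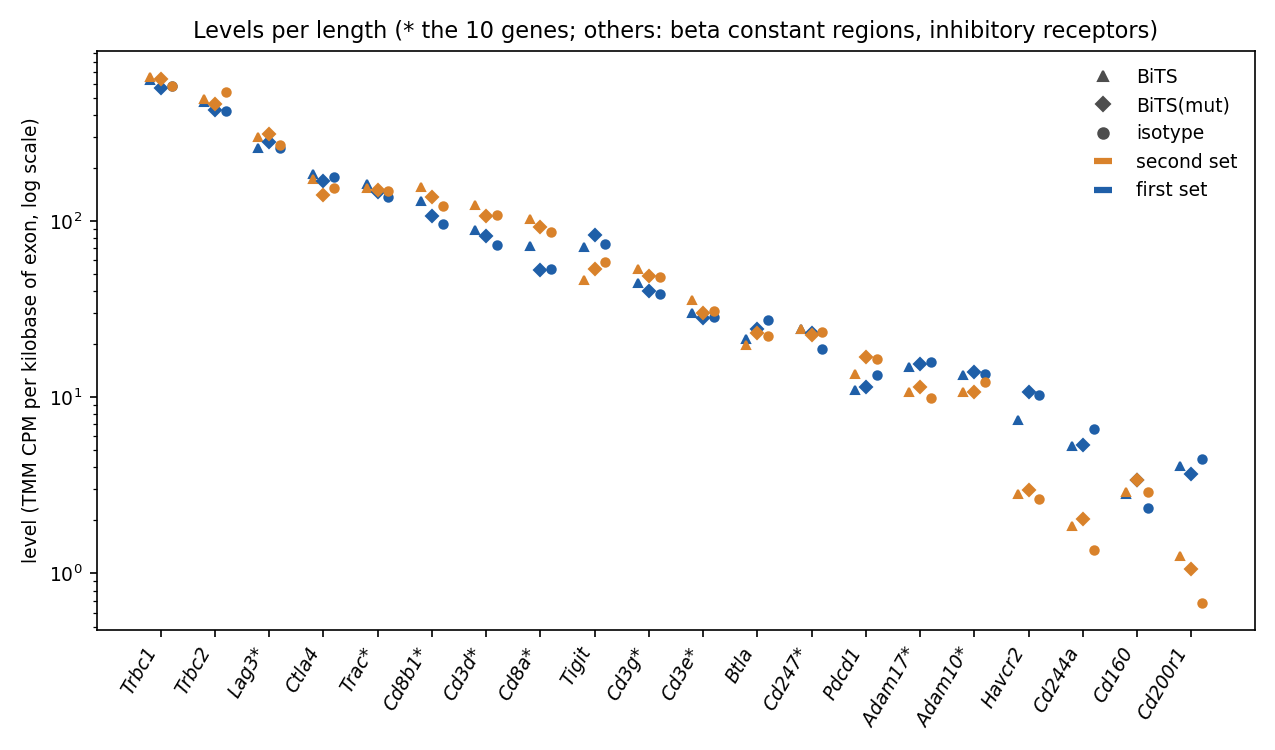
Level per length of the 10 genes (starred), the beta chain constant regions and 8 other inhibitory receptors, in TMM-scaled CPM per kilobase of exon on a log scale. Symbols mark the treatment group and colours the set, with 1 point per library; Lag3 averaged 279.0 CPM per kilobase, above Ctla4 (166.1) and Pdcd1 (13.8).

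The per-library values of Lag3, the receptor that BiTS engages, differed little between treatments. Lag3 was at 542.8 and 633.6 CPM with BiTS, 589.7 and 655.3 CPM with BiTS(mut), and 543.2 and 566.2 CPM with isotype (TMM-scaled, first and second set). The BiTS libraries overlapped those of both other groups, while both BiTS(mut) libraries were above both isotype libraries. Group means were 588.2 ± 64.2 CPM with BiTS, 622.5 ± 46.4 CPM with BiTS(mut) and 554.7 ± 16.2 CPM with isotype (SD, n = 2 libraries each). In the edgeR quasi-likelihood fit with a term for the set, the log2 fold change of Lag3 was 0.08 ± 0.08 (SE) for BiTS against isotype (adjusted p = 0.708), with a 95% interval of -0.08 to 0.24. It was -0.08 ± 0.08 for BiTS against BiTS(mut) (adjusted p = 0.901, interval -0.24 to 0.07). Between BiTS(mut) and isotype it was 0.16 ± 0.08, with an unadjusted p of 0.0467 and an adjusted p of 0.9997 in edgeR. Differences in Lag3 mRNA larger than about 0.32 on the log2 scale thus lie outside all 3 intervals of that fit. In the fit without the set, which was the main test, the 3 intervals were wider. They were -0.22 to 0.39, -0.39 to 0.22 and -0.14 to 0.47 in the same order, so 0.32 is no bound there. All intervals given here take their multiple of the SE from a normal distribution. With the few degrees of freedom of the main fit, its intervals are therefore narrower than true 95% intervals.

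**Figure D2:**
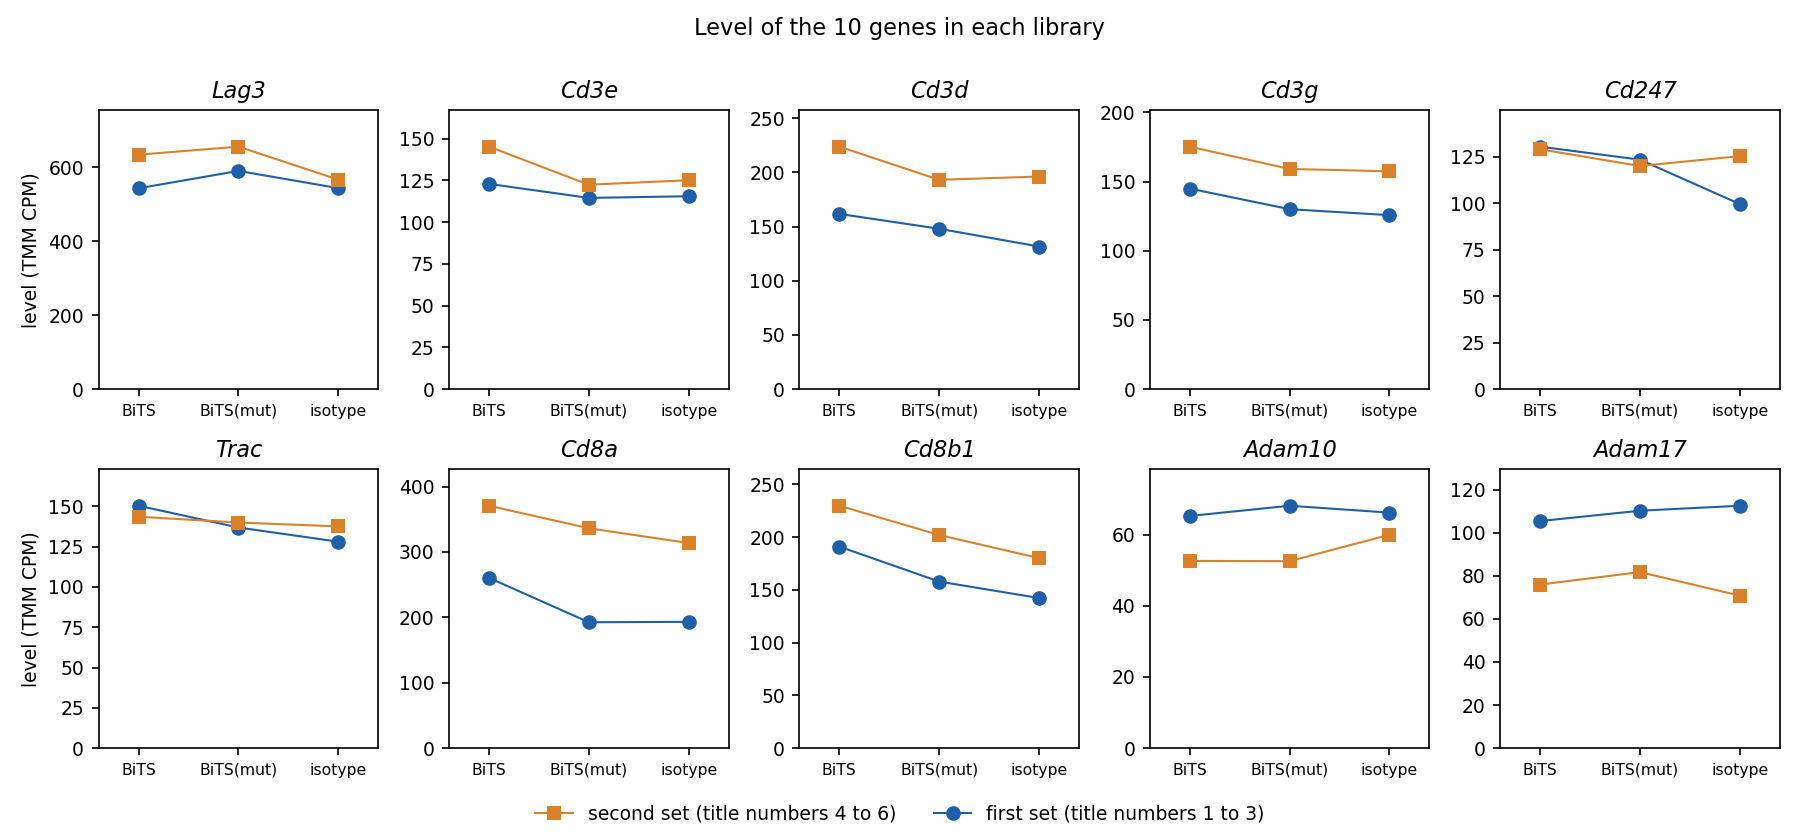
Level of each of the 10 genes in each library, in TMM-scaled CPM, with a linear axis from 0. Lines join the 3 libraries of a set; BiTS has the highest point of both lines for Cd3e, Cd3d, Cd3g, Cd247, Trac, Cd8a and Cd8b1, and not for Lag3, Adam10 or Adam17.

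The 7 receptor and coreceptor genes were each highest with BiTS in both sets. This was so for 7 of 7 of them and for none of Lag3, Adam10 and Adam17, and the same pattern was found in 16.2% of the tested genes. It was found in 6 of 14 T cell markers outside the 10 genes and in 13 of 28 genes of receptor signalling. The differences were small, and the count of 7 is a description of genes that share libraries. BiTS libraries were above isotype in both sets for 7 of the 10 genes (28.2% of tested genes), and above BiTS(mut) in both sets for the same 7 genes (28.3% of tested genes); these comparisons share the BiTS libraries. BiTS(mut) was above isotype in both sets for 4 of 10, Lag3, Cd3g, Trac and Cd8b1 (25.2% of tested genes).

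The CD8 chains, which bind MHC class I and bring Lck to the receptor, had the largest differences of the 10 genes in the fit with the set for BiTS against isotype and for BiTS against BiTS(mut), but not for BiTS(mut) against isotype, where Lag3 (0.164) was above Cd8b1 (0.158) and Cd8a (0.050) on the log2 scale. Cd8b1, the beta chain, was at 190.9 and 229.6 CPM with BiTS, 157.8 and 201.9 CPM with BiTS(mut), and 142.2 and 180.0 CPM with isotype (first and second set). Both BiTS libraries were above both isotype libraries. Cd8a, the alpha chain, was at 260.4 and 370.6 CPM with BiTS, 192.5 and 336.2 CPM with BiTS(mut), and 193.1 and 313.6 CPM with isotype. For Cd8a the groups overlapped, because each group's second-set library was far above its first-set library. In the fit without the set, which was the main test, neither gene was called against isotype (edgeR, Cd8b1 0.38 ± 0.21 and Cd8a 0.32 ± 0.36 on the log2 scale, adjusted p = 1.0 for both). With the set as a term, both rose with BiTS: Cd8b1 by 0.39 ± 0.08 (1.31-fold, adjusted p = 0.00297) and Cd8a by 0.34 ± 0.08 (1.26-fold, adjusted p = 0.0136).

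Within the sets, the Cd8b1 difference between BiTS and isotype on the log2 scale was 0.35 in the second set and 0.43 in the first, and that of Cd8a 0.24 and 0.43. Against BiTS(mut) the log2 fold changes were 0.23 ± 0.08 for Cd8b1 (edgeR adjusted p = 0.261) and 0.29 ± 0.08 for Cd8a (adjusted p = 0.0946), and neither passed. Without isotype replicate 1 or isotype replicate 4, libraries that are in neither group, both were called against BiTS(mut) at nearly the same fold changes (edgeR adjusted p = 0.00285 or 0.000429 for Cd8a and 0.0293 or 0.0194 for Cd8b1), as they were from the 4 BiTS and BiTS(mut) libraries alone (0.000373 and 0.0184). The Cd8a call depended on single libraries. Without BiTS replicate 1, its log2 fold change against isotype was 0.22 (adjusted p = 0.451 in edgeR), and without BiTS(mut) replicate 1 or 2 the adjusted p was 0.0701 or 0.0682. Cd8b1 kept a log2 fold change of 0.35 without BiTS replicate 1, at an adjusted p of 0.106. Scaled to the spike-in transcripts, with the set as a term, the fold changes of both genes against isotype were 0.39 and 0.45 on the log2 scale and neither was called.

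The CD3 chains and the alpha constant region pointed the same way as the CD8 chains but did not pass the test. Cd3d, which pairs with CD3 epsilon, was at 161.7 and 223.8 CPM with BiTS, 148.0 and 193.2 CPM with BiTS(mut), and 131.6 and 196.2 CPM with isotype. The sets separated its libraries more than the treatments did. Cd3g, whose product also pairs with CD3 epsilon, was at 144.9 and 175.2 CPM with BiTS, 130.0 and 159.1 CPM with BiTS(mut), and 125.7 and 157.4 CPM with isotype. Cd3e, which every CD3 dimer other than zeta contains, was at 122.9 and 145.2 CPM with BiTS, 114.5 and 122.4 CPM with BiTS(mut), and 115.5 and 125.1 CPM with isotype. Both BiTS libraries of Cd3e were above both BiTS(mut) libraries, by a small margin, and overlapped the isotype libraries. Cd247 was at 130.4 and 129.0 CPM with BiTS, 123.4 and 120.0 CPM with BiTS(mut), and 99.5 and 125.3 CPM with isotype. Its isotype replicate 1 was the lowest of the 6 libraries and set the width of the isotype group. Trac was at 150.4 and 143.6 CPM with BiTS, 136.9 and 140.0 CPM with BiTS(mut), and 128.1 and 137.6 CPM with isotype, so that both BiTS libraries were above the other 4.

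In the fit with the set, the log2 fold changes for BiTS against isotype were 0.24 ± 0.08 for Cd3d (edgeR adjusted p = 0.116), 0.21 ± 0.09 for Cd247 (0.223), 0.18 ± 0.08 for Cd3g (0.297), 0.15 ± 0.08 for Cd3e (0.414) and 0.15 ± 0.08 for Trac (0.432). Against BiTS(mut) the 5 values ran from 0.09 for Trac and Cd247 to 0.17 for Cd3e and Cd3d. Between BiTS(mut) and isotype they ran from -0.02 for Cd3e to 0.12 for Cd247. The Cd247 difference from isotype was 0.04 within the second set and 0.39 within the first on the log2 scale. Without isotype replicate 4, Cd247 (log2 fold change 0.40, adjusted p = 0.00246) and Cd3d (0.32, adjusted p = 0.0154) were called in edgeR; without isotype replicate 1, Cd247 stood at 0.03.

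Adam10 and Adam17, the sheddases, did not differ with treatment beyond the spread of the libraries. Adam10 was at 65.3 and 52.6 CPM with BiTS, 68.1 and 52.6 CPM with BiTS(mut), and 66.2 and 59.97 CPM with isotype. Adam17 was at 105.4 and 75.9 CPM with BiTS, 110.2 and 81.7 CPM with BiTS(mut), and 112.5 and 70.8 CPM with isotype. In both genes every group overlapped every other, and the first-set library was the higher one in each group. For BiTS against isotype in the fit with the set, the 95% interval of the log2 fold change was -0.29 to 0.09 for Adam10. That of Adam17 was -0.18 to 0.17. In the main fit, without the set, the intervals were wider, at -0.49 to 0.3 for Adam10 and -0.6 to 0.57 for Adam17. They too rest on a normal distribution and are narrower than true 95% intervals for that fit.

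**Figure D3:**
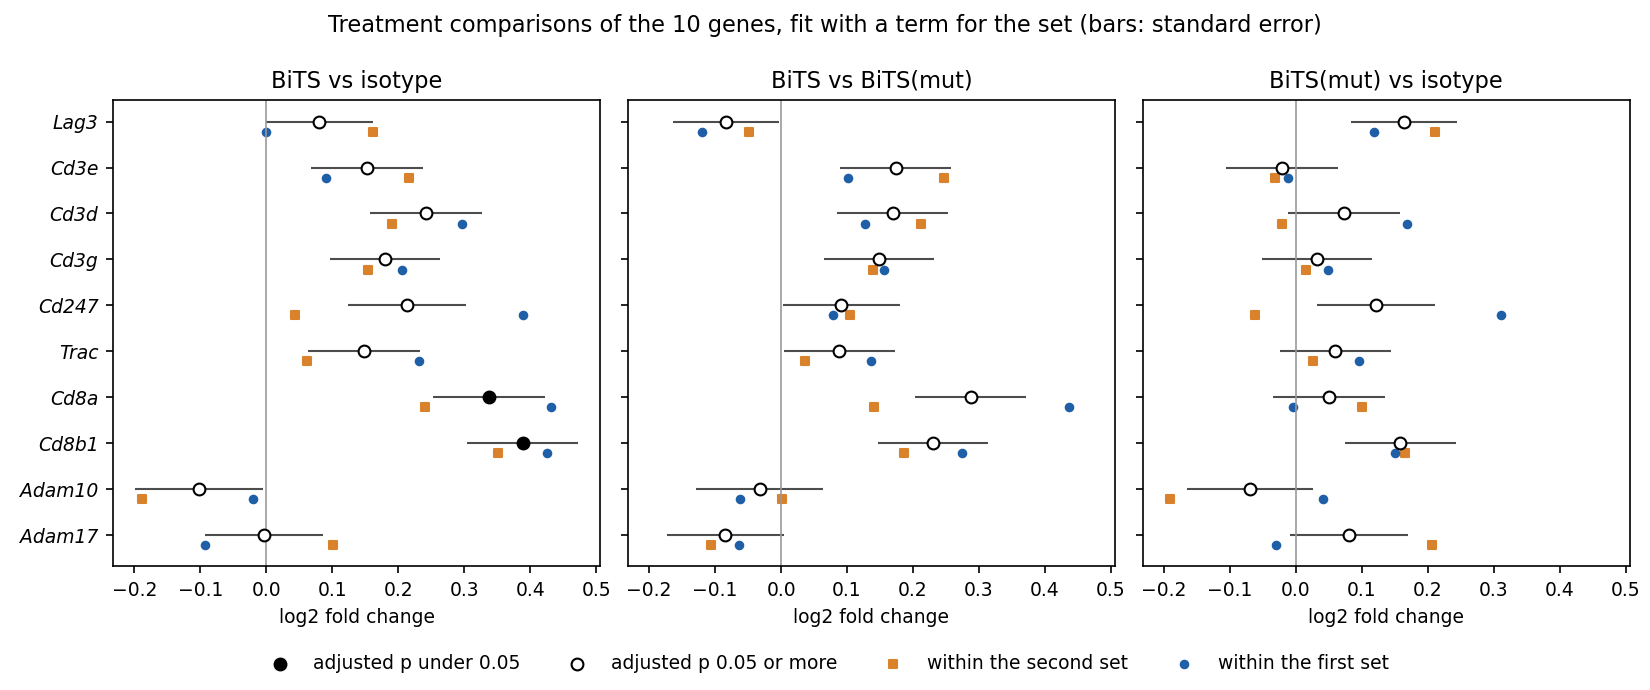
Log2 fold changes of the 10 genes in the 3 treatment comparisons, from the edgeR fit with a term for the set (large circles, bars are standard errors; filled where the adjusted p was under 0.05) and within each set (small symbols). Filled circles appear only for Cd8a (0.34) and Cd8b1 (0.39) in BiTS against isotype.

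Set against all genes, the calls among the 10 were as follows. In the main fit, without the set, 0 of the 10 genes and 0.0% of the 13996 tested genes were called higher or lower in any treatment comparison by edgeR. At an unadjusted p under 0.05 that fit held 176 genes for BiTS against isotype, 76 for BiTS against BiTS(mut) and 41 for BiTS(mut) against isotype. Each count was below a share of 0.05 of the tested genes, the share expected if no gene differed. Without a term for the set, that fit counts differences between the sets as spread within the groups. DESeq2 and limma-voom without the set also called 0 genes in each comparison. With the set as a term, 2 of 10 were called for BiTS against isotype, both higher, where 3.4% of all genes were called (1.81% higher and 1.59% lower). For BiTS against BiTS(mut) 0 of 10 were called, where 0.972% of all genes were (0.272% higher and 0.7% lower). For BiTS(mut) against isotype 0 of 10 were called, where 0.05% of all genes were (0.00714% higher and 0.0429% lower). The median log2 fold change of the 10 was 0.17, 0.12 and 0.07 in these 3 comparisons, against -0.005, 0.001 and 0.0 over all tested genes.

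Libraries that did not overlap named other genes than the calls, with Cd8b1 in both. For BiTS against isotype, Cd247, Trac and Cd8b1 were higher in both BiTS libraries than in both isotype libraries (3 of 10, where 11.3% of all genes were so) and 0 of 10 were lower (9.5%). For BiTS against BiTS(mut), Cd3e, Cd247 and Trac were higher (3 of 10, against 8.71%) and 0 of 10 lower (7.85%). In BiTS(mut) against isotype, Lag3 alone was higher (1 of 10, against 6.82%) and 0 of 10 lower (6.89%).

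Ratios within a library do not depend on the scaling. The ratio of Lag3 to the summed CD3 chains, per kilobase, was 1.37 and 1.27 with BiTS, 1.62 and 1.496 with BiTS(mut), and 1.63 and 1.28 with isotype. Both BiTS libraries were below both BiTS(mut) libraries, a difference of -0.24 on the log2 scale (exact permutation test, two-sided, p = 0.333, the smallest that 2 against 2 libraries allow). Against isotype the BiTS difference was -0.13 (exact permutation p = 0.667). The ratio of Cd8a to Cd8b1, the chains of the CD8 heterodimer, was 0.556 and 0.658 with BiTS, 0.497 and 0.679 with BiTS(mut), and 0.554 and 0.710 with isotype. The treatment groups overlapped in this ratio, while every second-set library was above every first-set library (difference 0.35 on the log2 scale, exact permutation p = 0.1, the smallest for 3 against 3). The ratio of Adam10 to Adam17 was 0.902 and 1.01 with BiTS, 0.900 and 0.937 with BiTS(mut), and 0.857 and 1.23 with isotype, and again only the sets separated (0.25, exact permutation p = 0.1).

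Between the sets, 6 of the 10 genes changed, where 52.7% of all genes did. Cd8a rose to 340.2 ± 28.7 CPM in the second set, against 215.3 ± 39.0 CPM in the first (SD, n = 3 libraries each), a log2 fold change of 0.67 ± 0.07 in the fit with group and set (edgeR adjusted p = 2.06e-11). Cd3d averaged 204.4 ± 16.9 CPM in the second set and 147.1 ± 15.1 CPM in the first (0.48 ± 0.07, edgeR adjusted p = 1.11e-07), Cd8b1 rose by 0.32 ± 0.07 and Cd3g by 0.30 ± 0.07. Adam17 fell to 76.2 ± 5.46 CPM in the second set, against 109.3 ± 3.61 CPM in the first (log2 fold change -0.52 ± 0.07, edgeR adjusted p = 4.64e-08), and Adam10 had a log2 fold change of -0.28 ± 0.08 (edgeR adjusted p = 0.00276). Lag3 (0.15 ± 0.07, edgeR adjusted p = 0.0588), Cd3e (0.15 ± 0.07, adjusted p = 0.0613), Cd247 (0.09) and Trac (0.02) were not called. Without isotype replicate 1 or isotype replicate 4, Lag3 (edgeR adjusted p = 0.00495 or 0.00331) and Cd3e (0.0490 or 0.0432) were called as well, and without BiTS(mut) replicate 1 or 2 Adam10 was not (0.110 or 0.114). Libraries of the sets did not overlap for Cd3d, Cd3g and Cd8a, higher in the second set (3 of 10, against 27.9% of all genes), and for Adam10 and Adam17, lower in it (2 of 10, against 27.8%).

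These directions hold for scaling to the gene counts. With scaling to the spike-in transcripts, the median of all tested genes was -0.743 on the log2 scale in the second set against the first, and all 10 genes were negative, at -0.09 for Cd8a, -0.28 for Cd3d, -0.62 for Lag3, -1.04 for Adam10 and -1.29 for Adam17. With that scaling 2 of the 10, Adam10 and Adam17, were called. A change of scaling shifts all genes of a library alike, so their order among themselves is not tested by it.

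**Figure D4:**
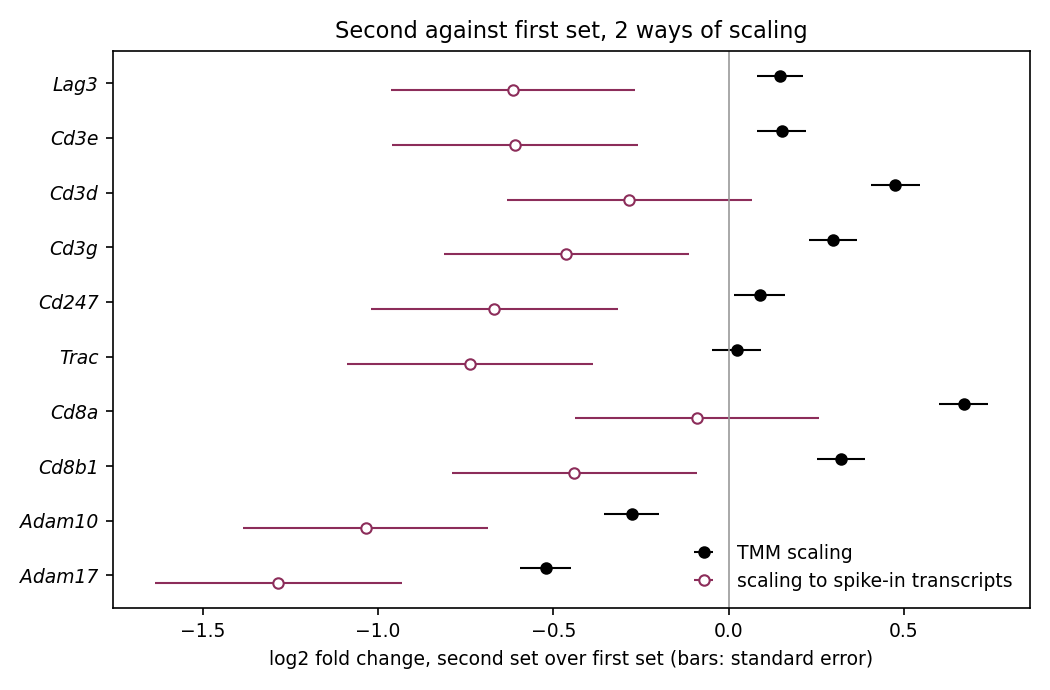
Log2 fold change of the 10 genes in the second set over the first, with TMM scaling (filled) and with scaling to the spike-in transcripts (open); bars are standard errors from edgeR. With TMM scaling 8 genes are above 0 (Cd8a 0.67) and Adam10 (-0.28) and Adam17 (-0.52) below, whereas with spike-in scaling all 10 are below 0.

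The genes that work with the members were followed from lists. The LAG-3 ligands are MHC class II molecules, galectin-3, FGL1 and LSECtin. Of 6 listed ligand genes 4 were tested; Fgl1 had 0 to 3 counts per library, and Clec4g, which encodes LSECtin, was at 0 in every library, where a count of 3 corresponded to 0.197 to 0.277 CPM. H2-Aa, an MHC class II alpha chain, was at 143.0 and 62.7 CPM with BiTS, 175.0 and 73.9 CPM with BiTS(mut), and 176.5 and 78.5 CPM with isotype. With the set in the fit it fell with BiTS against isotype (log2 fold change -0.31 ± 0.09, edgeR adjusted p = 0.0277); leaving out either BiTS library or either BiTS(mut) library ended that call. H2-Eb1 (-0.25), Lgals3 (-0.13) and H2-Ab1 (-0.04) were not called. In the second set all 4 tested ligand genes fell against the first, with log2 fold changes of -0.85 to -1.20. Dendritic cell markers, a list that holds the 3 MHC class II genes, moved with them: 6 of 16 tested were called lower and 0 higher for BiTS against isotype with the set in the fit (median -0.33), where 1.59% of all genes were called lower; the main fit called 0. Between the sets 14 were called lower and 1 higher, where 26.9% and 25.9% of all genes were. Ccl22 (209.2 and 179.5 CPM with BiTS, 391.1 and 261.5 CPM with isotype), a chemokine of mature dendritic cells, fell by 0.73 ± 0.09 on the log2 scale with BiTS against isotype (edgeR adjusted p = 7.71e-08). Ccl17 fell by 1.02, Ciita, the MHC class II transactivator, by 1.39 and Cd83 by 0.55 on the log2 scale. The part of these cells in the differences of the receptor genes was not tested. Summed T cell markers outside the members were 3498 and 3712 CPM with BiTS, 3229 and 3647 CPM with BiTS(mut), and 3103 and 3696 CPM with isotype. That order rested on a few genes: without Lck the sums were 2700 and 2962 CPM with BiTS, 2537 and 3016 CPM with BiTS(mut), and 2501 and 3135 CPM with isotype, so that BiTS was lowest in the second set, and without Trbc1 isotype was highest in that set. With the set in the fit, 9 of the 14 markers were positive and 5 negative for BiTS against isotype (median log2 fold change 0.055), and 1, Lck, was called higher, where 1.81% of all genes were.

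Among 28 genes of receptor signalling, 4 were called higher and 0 lower for BiTS against isotype with the set in the fit (median 0.17, against -0.005 over all tested genes), where 1.81% of all genes were called higher and 1.59% lower; the main fit called 0. Plcg1, the phospholipase that acts below LAT, rose by 0.48 ± 0.08 and Ptpn22, a phosphatase that restrains Lck, by 0.47 ± 0.08 on the log2 scale (edgeR adjusted p = 0.000147 and 0.000203). Lck rose by 0.41 ± 0.08, to 798.3 and 749.9 CPM with BiTS, against 691.6 and 630.1 CPM with BiTS(mut) and 601.5 and 560.8 CPM with isotype (edgeR adjusted p = 0.000649), and both BiTS libraries were above the other 4. Zap70, the kinase that binds the phosphorylated CD3 tails, was named after its value was seen and rose by 0.28 ± 0.08 (edgeR adjusted p = 0.0417), a call made in 3 of 13 fits with the set that differ in tool, scaling, filter or libraries. Without BiTS replicate 2, Lck and Ptpn22 were not called (edgeR adjusted p = 0.0690 and 0.0780). Against BiTS(mut), Ptpn22 rose by 0.34 and Cd5, a negative regulator of receptor signalling, fell by 0.33 on the log2 scale (edgeR adjusted p = 0.0246 and 0.0410), and neither was called when either BiTS or either BiTS(mut) library was left out. None of the 28 was called for BiTS(mut) against isotype, where 0.05% of all genes were.

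Of the 10 tested sheddase partners and inhibitors, 1 was called higher and 0 lower for BiTS against isotype with the set in the fit. For all genes the shares were 1.81% higher and 1.59% lower. The called gene was Tspan14, a tetraspanin partner of ADAM10. It was at 46.7 and 47.7 CPM with BiTS, 38.6 and 46.1 CPM with BiTS(mut), and 36.7 and 36.1 CPM with isotype (log2 fold change 0.37 ± 0.11, edgeR adjusted p = 0.0385), a call made in 4 of those 13 fits. Among the 11 tested sheddase substrates, 2 were called lower and 0 higher in that fit of BiTS against isotype. Of these, Tnf, which encodes the cytokine TNF, a substrate of ADAM17, fell by 0.32 ± 0.10 on the log2 scale (edgeR adjusted p = 0.0499). Its call was also made in 4 of the 13 fits. None of the 8 other inhibitory receptors was called in a treatment comparison. With the set in the fit, the shares called over all genes were 3.4% for BiTS against isotype and 0.972% for BiTS against BiTS(mut). For BiTS(mut) against isotype the share was 0.05%, so 0 of 8 does not set these receptors apart from other genes. For BiTS against isotype Pdcd1 stood at -0.29, Btla at -0.27, Tigit at -0.19 and Ctla4 at 0.11 on the log2 scale. The beta chain constant region genes Trbc1 and Trbc2 stood at 0.14 and 0.01 and Trdc at 0.10, and none of them was called.

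Genes whose levels followed a member most closely were sought among 7335 genes with a mean of at least 20 CPM, by Pearson's r over the 6 libraries after the mean of each set was subtracted. With so few libraries many genes reach a high r, so the names are a description. For Lag3 they were Clcn4, a chloride and proton exchanger (r = 0.995), Zfp451 (0.995) and Gmfg (0.992), and 34 genes exceeded 0.95. For Cd3e they were Uggt1, Zfp654 and Nfil3 (r = 0.996, 0.995 and 0.994, with 86 genes over 0.95). For Cd8a they were Txlna, Ldb1 and Ddx55 (r = 0.994, 0.991 and 0.991, with 72 genes over 0.95). For Adam10 they were Map2k3, Pitpnb and Dido1 (r = 0.999, 0.998 and 0.997, with 109 genes over 0.95).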

How the data were processed

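RNA was measured in 6 libraries. Per the file headers, the authors deposited raw counts per gene with exon intervals and a summed exon length, 1 table per library. The submitters' processing notes name mm10 and DESeq2; no source used here names the aligner, the counter or whether it read strand. Symbols came by identifier from GENCODE M21 (49326 of 49671 identifiers), and all 10 genes had the same position there.

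The 92 spike-in transcripts were left out of the gene totals. After TMM scaling and the filterByExpr filter, genes were tested two-sided by quasi-likelihood in edgeR 4.0.16 (R 4.3.3; limma 3.58.1 and DESeq2 1.42.0 served as alternatives), with Benjamini-Hochberg adjustment over 13996 genes; called means an adjusted p under 0.05. The main fit had 1 coefficient per group over all 6 libraries. The fit with the set added a replicate block for the title-number sets. How far a library lay from its group mean was correlated across all tested genes, between pairs of first-set libraries. The correlation was 0.74 for BiTS and BiTS(mut), 0.663 for BiTS and isotype, and 0.728 for BiTS(mut) and isotype. With 2 libraries per group, the second set gives the same correlations by construction. The pairing comes from the title numbering, and the labels state no batch. Residual degrees of freedom were 3 without and 2 with the block. To these edgeR adds prior degrees of freedom, borrowed from the spread of all genes, with a median of 3.138 without and 45.95 with the block. The p-values of the fit with the set therefore rest mostly on that shared spread. Set differences used the fit with group and set. Ratios used exact permutation tests. The code was tested on simulated counts with the same dispersion for all genes and larger changes than the treatment changes of the 10 genes. For the fit without the set, they held no set difference. They do not show how the fits perform on these data. The counts behind the 10 genes ran from 555 (Adam10, BiTS replicate 2, counting error 4.25%) to 9073 (Lag3, BiTS(mut) replicate 1, 1.05%), and in 3 of 30 combinations of gene and group the SD of the libraries was below the counting error of the lower count (Cd247 with BiTS and BiTS(mut), Trac with BiTS(mut)); it and the limit of 3 counts cover counting error only.

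The 10 genes and the gene lists were chosen with earlier results of these data known. Named beyond them were the called genes of each list in the fit with the set (at most 4 by smallest p), every measured gene of the ligand, coreceptor, constant region and inhibitory receptor lists, and the 3 genes most like Lag3, Cd3e, Cd8a and Adam10. Alternatives were other tools, scalings and filters, only the 4 libraries compared, and leaving out each library. Some listed genes are not reported here.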

Additional observations from a re-analysis of the deposited data

Results flagged for a closer look

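In 8 of the 30 treatment differences of the 10 genes, the value within the second set had the opposite sign to that within the first. Each set holds 1 library per group, so these differences between the sets were not tested. Values are log2 differences, the second set minus the first.

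For BiTS against isotype, Lag3 differed between the sets by 0.16 (0.162 in the second and -0.001 in the first) and Adam17 by 0.19 (0.101 and -0.094). For BiTS against BiTS(mut), Adam10 differed by 0.06 (0.002 and -0.062). For BiTS(mut) against isotype, Cd247 differed by -0.37 (-0.062 in the second and 0.31 in the first), the largest of the 8. In the same comparison Cd3d differed by -0.19 (-0.022 and 0.169), Cd8a by 0.1 (0.101 and -0.004), Adam10 by -0.23 (-0.19 and 0.041) and Adam17 by 0.24 (0.207 and -0.03). None of the 8 involves Cd8b1, Cd3e, Cd3g or Trac. The values of -0.001 for Lag3, -0.004 for Cd8a and 0.002 for Adam10 lie within counting error, so their signs carry no direction.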

How the results depend on the processing

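With 2 libraries per group, calls depended on whether the set was in the fit. Genes called for BiTS against isotype were 0 in the main fit and 476 with the replicate block, of which members 2. With the block they were 155 by DESeq2, 461 with RLE size factors, 411 with library totals, 458 with no filter, 409 at a CPM of at least 5 and 295 from the 4 libraries compared (members 2 each, but 1, Cd8b1, from the 4 libraries), and 0 with spike-in scaling; without block or filter they were 11. For BiTS against BiTS(mut) the block gave 136 and, in the same order, 51, 148, 124, 155, 102, 442 (2 members, Cd8a and Cd8b1) and 0; without block or filter 3. For BiTS(mut) against isotype it gave 7 and 2, 7, 6, 14, 5, 7 and 1; without block or filter 5. Of the calls for BiTS against isotype, 253 were higher with TMM, 233 with RLE and 165 with library totals, all with the block.

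Leaving out 1 library gave 0 to 937 called genes and 0 to 4 members for BiTS against isotype, 0 to 435 and 0 to 2 for BiTS against BiTS(mut), and 0 to 132 genes for BiTS(mut) against isotype; without the block all counts were 0, and the sets are then unbalanced between groups. With the block, genes called for BiTS against isotype were 345 and 130 without BiTS replicate 1 and 2, 291 and 306 without BiTS(mut) replicate 1 and 2, and 937 and 581 without isotype replicate 1 and 4; for BiTS against BiTS(mut) they were 100, 65, 25, 28, 361 and 435 in the same order, and for BiTS(mut) against isotype 12, 12, 9, 7, 132 and 15. Between the sets, members called were 2 with spike-in scaling.

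Of 550 member values with all libraries kept, 25 changed sign, all under spike-in scaling except Adam17 by limma-voom and Trac between the sets with library totals and with no filter. Spike-in scaling without and with the block gave, for BiTS against isotype, Adam17 0.024 and 0.066; for BiTS against BiTS(mut), Lag3 0.013 and 0.098 and Adam10 0.0015 and 0.14, and Adam17 0.10 with the block, where the median of all genes was 0.178. For BiTS(mut) against isotype it gave Cd3g -0.029 and -0.09, Cd8a -0.074 and -0.085, and with the block Cd3d -0.044, Trac -0.065 and Adam17 -0.035, where that median was -0.121. Between the sets it gave Lag3 -0.62, Cd3e -0.61, Cd3d -0.28, Cd3g -0.46, Cd247 -0.67, Trac -0.74, Cd8a -0.090 and Cd8b1 -0.44. Limma-voom gave Adam17 0.0061 for BiTS against isotype, and Trac between the sets was -0.027 with library totals and -0.0009 with no filter.

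Leaving out 1 library changed the sign in 46 of 420 member values. For the treatment comparisons these values and the ranges below pool fits with and without the block. Without the block, a library left out unbalances the sets between the groups. With the block alone, Cd8a for BiTS against BiTS(mut) ran from 0.17 to 0.41. The ranges for BiTS against isotype were Lag3 -0.03 to 0.19, Cd3d -0.026 to 0.55, Adam10 -0.26 to 0.05 and Adam17 -0.31 to 0.36. For BiTS against BiTS(mut) they were Lag3 -0.19 to 0.026, Cd3d -0.074 to 0.39, Cd247 -0.0044 to 0.20, Cd8a -0.084 to 0.71, Adam10 -0.21 to 0.17 and Adam17 -0.34 to 0.16. For BiTS(mut) against isotype they were Cd3e -0.081 to 0.035, Cd3d -0.20 to 0.37, Cd3g -0.13 to 0.20, Cd247 -0.062 to 0.31, Trac -0.0063 to 0.12, Cd8a -0.39 to 0.45, Cd8b1 -0.027 to 0.34, Adam10 -0.27 to 0.11 and Adam17 -0.23 to 0.44. Between the sets Cd247 ran from -0.037 to 0.15 and Trac from -0.026 to 0.064.

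The list genes named as called were run through the same alternatives, a choice made after seeing the data. In 13 fits with the block and without spike-in scaling, Plcg1, Ccl22, Ccl17 and Cd83 were called against isotype in 13, Lck, Ptpn22 and Ciita in 12, Cd7 in 11, H2-Aa in 7, Tspan14 and Tnf in 4 and Zap70 in 3; against BiTS(mut) Ptpn22 was called in 9 and Cd5 in 7. With 1 library left out, with or without the block, H2-Aa ran from -1.03 to 0.39 and Cd83 from -1.14 to 0.017 against isotype. In the 13 fits with the block, H2-Aa ran from -0.35 to -0.29 and Cd83 from -0.59 to -0.52.

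With 1 library left out, 8 of the 9 ratio differences between treatments turned. Lag3 to CD3 chains for BiTS against BiTS(mut) did not (-0.298 to -0.183). These differences had no term for the set, so a library left out unbalances the sets between the groups. Second minus first set, the ratios differed by 0.35 for Cd8a to Cd8b1, 0.248 for Adam10 to Adam17 and -0.193 for Lag3 to CD3 chains. A turn of sign therefore cannot be told apart from a difference between the sets. Lag3 to CD3 chains ran from -0.31 to 0.047 for BiTS against isotype and from -0.067 to 0.29 for BiTS(mut) against isotype. Cd8a to Cd8b1 ran from -0.23 to 0.13, from -0.17 to 0.28 and from -0.34 to 0.12, and Adam10 to Adam17 from -0.37 to 0.15, from -0.027 to 0.14 and from -0.43 to 0.10, for BiTS against isotype, BiTS against BiTS(mut) and BiTS(mut) against isotype. Causes were not tested. The smallest p of a test within 2 pairs is 0.5. Counting error of the 10 genes was 1.05% to 4.25% of a count.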

Other observations

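Among 4 tested markers of NK and innate lymphoid cells, 1, Cd7, was called higher with BiTS against isotype in the fit with the set. Its log2 fold change was 1.33 ± 0.32 (edgeR adjusted p = 0.00861), where 1.81% of all genes were called higher. The other 3 markers were negative, and the median of the 4 was -0.173. Cd7 was at 6.30 and 3.32 CPM with BiTS, 5.40 and 1.57 CPM with BiTS(mut), and 2.99 and 0.918 CPM with isotype. It had 10 to 85 counts per library. The inhibitory receptors Havcr2, Cd244a and Cd200r1 differed far more between the sets than Lag3. Their log2 fold changes in the second set against the first were -1.74, -1.71 and -2.02. That of Pdcd1 was 0.39, and that of Lag3 0.15. Dendritic cell markers also fell (median -1.008, 14 called lower and 1 higher), as did macrophage and monocyte markers (median -1.495, 4 lower and 1 higher). Which cells held the mRNA of these receptors was not tested. Thy1 (0.60) and Bcl11b (0.80), T cell markers outside the 10 genes, were higher in the second set. Among the 14 such markers 7 were called higher and 3 lower, where 25.9% and 26.9% of all genes were.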
